A study of Mus musculus with 21 samples.

Results

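*Cul1* and *Ezh2* are neighbouring protein-coding genes on mouse chromosome 6, and their poly(A) RNA was measured in 21 libraries of fully grown oocytes from mice carrying floxed or deleted alleles of *Kif11*, the gene of a kinesin that pushes spindle poles apart. Both were taken by symbol, because earlier results of these libraries had shown them higher with the Spo11-Cre driver. They are 2 of the 54232 genes in the count table (ENSMUSG00000029686 and ENSMUSG00000029687), and both were detected in all 21 libraries. Their levels by group are therefore a description and carry no p-value.

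CUL1 is the scaffold of the SCF ubiquitin ligase. It holds the RING protein RBX1 and, through the adaptor SKP1, an exchangeable F-box protein that picks the substrate, and it is switched on by attachment of NEDD8. In oocytes, SCF complexes with the F-box protein beta-TrCP (*Btrc*) act on regulators of meiotic arrest and resumption. EZH2 is the catalytic subunit of Polycomb repressive complex 2 (PRC2), which methylates lysine 27 of histone H3 together with EED and SUZ12. The oocyte lays down broad domains of this mark, and part of it is passed to the embryo.

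Libraries were made from 3 germinal vesicle stage oocytes each, taken after hormone treatment, per the study's general methods from females of 3 to 4 months on a C57BL/6 background. The *Kif11* wt/fl group without Cre (4 libraries) has a wild-type and a floxed allele and served as the control, and the fl/del group without Cre (4 libraries) has a floxed and a constitutively deleted allele. The wt/fl Spo11-Cre (5 libraries) and fl/del Spo11-Cre (4 libraries) groups add a Cre transgene under the promoter of *Spo11*, active in early meiotic prophase. The fl/fl Gdf9-Cre group (2 libraries) and its Zp3-Cre counterpart (2 libraries) have both alleles floxed and a Cre under an oocyte promoter that acts later. Every group carries a floxed allele, so none is fully wild type. Mice gave 1 or 2 replicates each, so p-values reflect the spread between libraries, part of which is technical. The fl/fl libraries are not among the 17 that the methods describe, so driver, genotype and library set cannot be told apart for them, and their labels give no age.

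Total counts were between 7205010 and 18454549 per library. Of the counts from 1 to 20 in this table, 66.4% to 79.0% per library were even, against 41.9% to 46.5% in a second deposited table with counts lower by a factor near 2 for the pair, so many counts appear to hold both reads of a pair and the totals exceed the number of fragments. *Kif11* over all exons was at 23.8 to 43.2 CPM (the count of a gene scaled to the total of its library) in wt/fl, 17.6 to 30.5 in wt/fl Spo11-Cre, 7.49 to 14.6 in fl/del, 1.08 to 2.70 in fl/del Spo11-Cre and 4.27 to 7.95 in the fl/fl libraries. The group mean was highest in wt/fl (34.5 CPM) and lowest in fl/del Spo11-Cre (1.78 CPM). Between them, wt/fl Spo11-Cre and fl/del had means of 24.6 and 11.9 CPM, though by genotype each keeps 1 working allele. The ranges of wt/fl and wt/fl Spo11-Cre overlapped, as did those of fl/del and the fl/fl libraries. The 12 oocyte genes checked, among them *Gdf9* and *Zp3*, each had counts in every library and summed to between 28749 and 40228 CPM. Of 18 follicle cell genes, 5 had a mean of at least 1 CPM, and the list summed to between 402 and 567 CPM, mostly *Serpine2* (318 to 440 CPM).

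In the GRCm38 assembly, *Cul1* occupies chr6:47453398-47526139 on the forward strand (72742 bp, of which 4040 bp are exonic) and *Ezh2* chr6:47530139-47595341 on the reverse strand (65203 bp, 6678 bp exonic). The genes point toward each other, and their 3′ ends are 3999 bp apart. Their starts therefore lie at the outer ends of a stretch of 141944 bp. The bases before a start of each gene are given here because the levels of both genes separated the same libraries. They are RefSeq sequences of the GRCm38.p6 assembly on the strand of the gene, kept to bases outside annotated exons of the gene itself, with matches to the searched motifs in capitals.

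Cul1 chr6:47454069-47454318 forward: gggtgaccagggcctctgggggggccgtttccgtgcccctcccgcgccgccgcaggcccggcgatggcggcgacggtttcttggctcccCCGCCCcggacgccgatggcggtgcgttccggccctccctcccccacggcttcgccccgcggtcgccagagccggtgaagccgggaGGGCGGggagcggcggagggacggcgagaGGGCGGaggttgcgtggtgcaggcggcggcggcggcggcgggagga
Ezh2 chr6:47595059-47595183 reverse: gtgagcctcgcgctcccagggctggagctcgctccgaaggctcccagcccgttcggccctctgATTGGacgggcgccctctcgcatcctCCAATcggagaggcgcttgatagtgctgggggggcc

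The *Cul1* stretch ends on the base before the RefSeq start at 47454319, 1 of 3 that RefSeq gives, and the *Ezh2* stretch ends 29 bases before the start at 47595030. GC boxes (GGGCGG) were found before this start of *Cul1* at positions -161 (reverse strand), -75 and -46, where the first base of the transcript is 1. CCAAT boxes (CCAAT) were found before the start of *Ezh2* at -90 (reverse strand), -64 and -11 (reverse strand, not shown). Its E2F motif TTTGGCGC begins at base 4 of the transcript and is not shown either. GGGCGG was present on either strand in 35.7% of 32851 RefSeq promoters of the same length (250 bases before the start and 50 after), CCAAT in 37.4% and TTTGGCGC in 0.514%. The E-box CACGTG (7.15% of promoters) was found only before the *Cul1* start at 47453732, and TATAAA (13.6%) and TTTCGCGC (0.323%) in none of the 4 windows. The printed *Cul1* stretch was 79.6% GC and the printed *Ezh2* stretch, of 125 bases, 69.6%. Over the full 250 bases before the start, *Ezh2* was 63.6% GC, beside a median of 52.4% over all promoters. The other *Cul1* starts differed, with 50.8% before 47453732 and 80% before 47454757. These matches are letters in a window, and no binding was measured.

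*Cul1* was at 1228, 1418, 1295 and 1247 CPM in the 4 wt/fl libraries. With Spo11-Cre, the 5 wt/fl libraries had 2147, 2057, 2199, 2082 and 2010 CPM. All 5 lay above the 4 controls, with means of 2099 ± 74.4 (SD, n = 5) and 1297 ± 85.3 CPM (SD, n = 4), and the fitted difference was 0.72 on the log2 scale (SE 0.07). The fl/del libraries without Cre had 1421, 1408, 1386 and 1375 CPM of *Cul1*, and the 4 fl/del Spo11-Cre libraries had 1973, 1944, 2117 and 1903 CPM. Here too the groups with and without the driver did not overlap. Their means were 1984 ± 93.2 and 1397 ± 21.1 CPM (SD, n = 4 each), a log2 difference of 0.49 (SE 0.07). As oocytes were pooled and CPM is a share of each library, more of one transcript per oocyte and less of the other RNA cannot be told apart.

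*Ezh2* separated the same libraries at a lower level. The 4 wt/fl libraries had 307, 298, 278 and 275 CPM of *Ezh2*, and the 5 wt/fl Spo11-Cre libraries had 419, 464, 465, 473 and 430.4 CPM. The lowest library with the driver was above the highest control, and the means were 450.3 ± 24.1 (SD, n = 5) and 289 ± 15.4 CPM (SD, n = 4), a log2 difference of 0.66 (SE 0.08). In the fl/del libraries without Cre, *Ezh2* was at 280, 290, 266 and 310.3 CPM, and with Spo11-Cre at 457, 455, 472 and 492 CPM. These groups did not overlap, with means of 287 ± 18.7 and 469 ± 17.2 CPM (SD, n = 4 each) and a log2 difference of 0.69 (SE 0.08).

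The same lack of overlap, with the Spo11-Cre group higher, was seen in 2.13% of 22383 tested genes within wt/fl and in 2.3% within fl/del. An adjusted p under 0.05 with a higher level, from edgeR's quasi-likelihood test, was given to 0.867% and 0.156% of genes in these comparisons. Because the pair was chosen from these contrasts, its place among them is not read further.

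**Figure D1:**
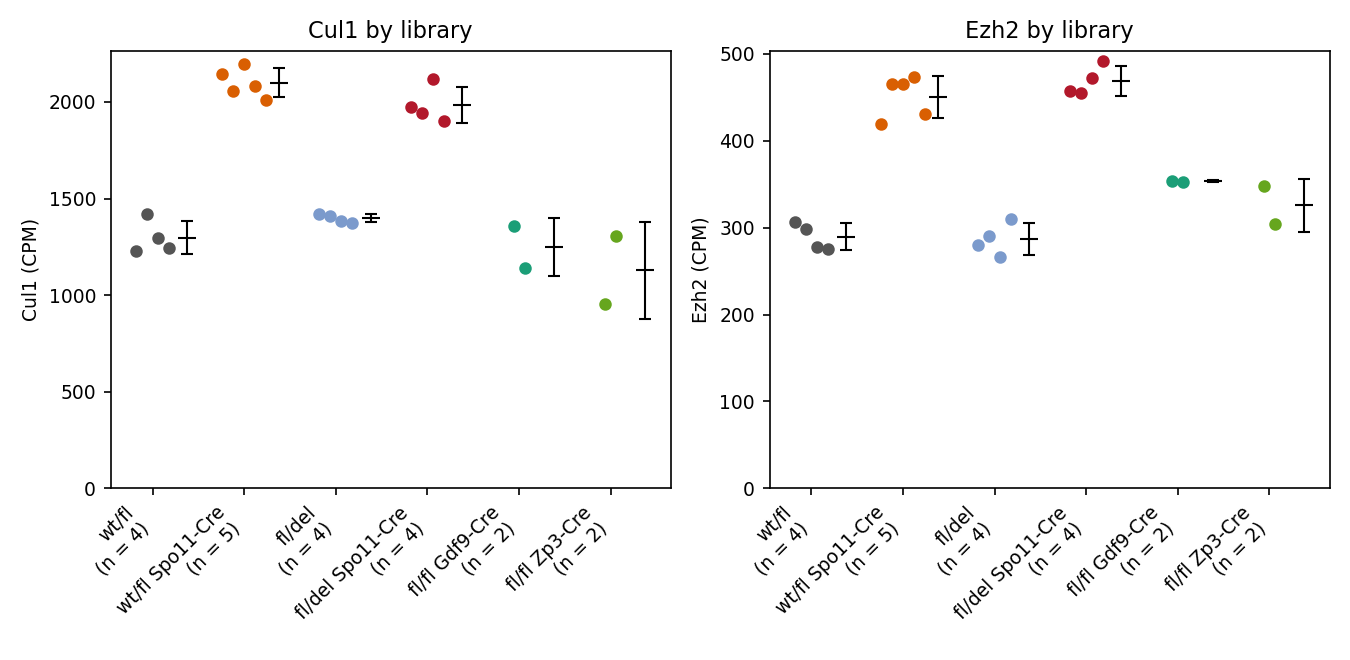
Levels of *Cul1* (left) and *Ezh2* (right) in CPM on axes that start at 0, one point per library, by *Kif11* genotype and Cre driver, with the group mean and SD in black beside the points. In both panels the 9 Spo11-Cre libraries lie above all other libraries, with *Cul1* at 1903 to 2199 CPM and *Ezh2* at 419 to 492 CPM.

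Over both genotypes, *Cul1* ranged from 1228 to 1421 CPM (median 1380.1) in the 8 libraries without Cre and from 1903 to 2199 CPM (median 2057) in the 9 with Spo11-Cre. The lowest library of the latter was 1.34 times the highest of the former, and the ratio of means was 1.52. For *Ezh2*, the libraries without Cre ranged from 266 to 310.3 CPM (median 285) and those with Spo11-Cre from 419 to 492 CPM (median 464). Its ratio across the gap was 1.35 and its ratio of means 1.59. The separation was also present between libraries grouped by the prefix of their names, with 4 prefixes without Cre and 5 with it. Mean *Cul1* was 1271 to 1415 CPM in the former and 1959 to 2141 CPM in the latter, and mean *Ezh2* was 276 to 302 and 430.4 to 482 CPM. The letter that follows the prefix was A in every library without Cre and B or C in every Spo11-Cre library. The labels do not say what it stands for, and driver and letter cannot be told apart.

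The pair was chosen for this difference, so nothing is read from its place among the 24 genes (0.107% of those tested) in which each Spo11-Cre library was above each library without Cre. Of the 24, 4 are on chromosome 6, and *Cul1* and *Ezh2* are among these. The 24 hold 2 pairs of genes within 1 Mb of each other, and the chosen pair is 1 of them. Shares over all genes were not computed for these counts, so they are not read further. The second pair is *Rae1* and *Rbm38*, 4758 bp apart on chromosome 2, which were named after their values were seen. Both lie at the locus of *Spo11*, the gene whose promoter drives this Cre. Whether that bears on their levels was not tested.

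The *Kif11* genotype without Cre did not separate the libraries in either gene. For fl/del against wt/fl, the log2 difference of *Cul1* was 0.12 (SE 0.07), and the fl/del libraries overlapped the controls. *Ezh2* differed by 0.00 (SE 0.08) and also overlapped. Between fl/del Spo11-Cre and wt/fl, which differ in both the driver and the deleted allele, the differences were 0.61 (SE 0.07) for *Cul1* and 0.69 (SE 0.08) for *Ezh2*, again with no overlap. This lack of overlap was found in 2.22% of genes tested, and these 3 comparisons use the same 4 wt/fl libraries. In percent of the wt/fl mean, *Cul1* was at 108 in fl/del, 162 in wt/fl Spo11-Cre and 153 in fl/del Spo11-Cre, and *Ezh2* was at 99.0, 156 and 162.

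In the fl/fl libraries, the pair did not follow the pattern seen with Spo11-Cre. The Gdf9-Cre libraries had 1356 and 1142 CPM of *Cul1*, the Zp3-Cre libraries 952 and 1306 CPM. All 4 lay below every Spo11-Cre library, and they overlapped the wt/fl controls. The log2 difference of both drivers together against wt/fl was -0.21 (SE 0.09). The Gdf9-Cre libraries had 354 and 352 CPM of *Ezh2*, the Zp3-Cre libraries 347 and 304 CPM. Of the 4 libraries, 3 were above the highest wt/fl library (307 CPM) and 1 was inside the control range, and all were below the lowest Spo11-Cre library (419 CPM). The fitted log2 difference of *Ezh2* against wt/fl was 0.14 (SE 0.09).

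Ordered by mean CPM, the groups ran from wt/fl Spo11-Cre through fl/del Spo11-Cre, fl/del, wt/fl and fl/fl Gdf9-Cre to fl/fl Zp3-Cre for *Cul1*. Neighbours in this order overlapped except fl/del Spo11-Cre and fl/del. For *Ezh2* the order was fl/del Spo11-Cre, wt/fl Spo11-Cre, fl/fl Gdf9-Cre, fl/fl Zp3-Cre, wt/fl and fl/del. Here wt/fl Spo11-Cre and fl/fl Gdf9-Cre did not overlap, nor did the 2 libraries of each fl/fl driver, while the other neighbours overlapped.

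**Figure D2:**
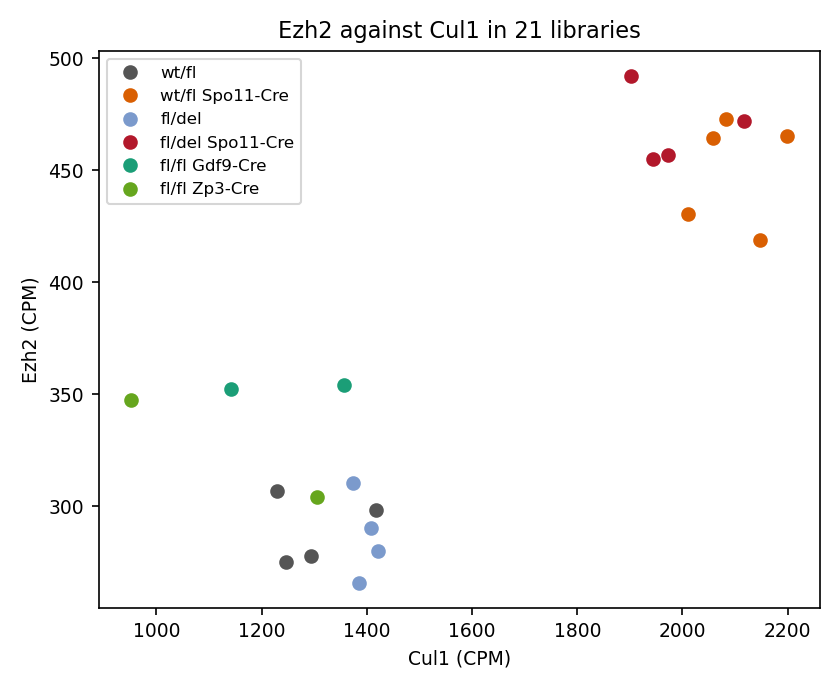
*Ezh2* against *Cul1*, both in CPM on linear axes that do not start at 0, one point per library, coloured by group. The 9 Spo11-Cre libraries form a separate cloud with *Cul1* at 1903 CPM or more and *Ezh2* at 419 CPM or more, and 3 of the 4 fl/fl libraries lie above all libraries without Cre in *Ezh2* (347 to 354 CPM) but not in *Cul1*.

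Within the clouds of this plot the genes did not move together. Pearson's r of log2(CPM + 1) was -0.27 (Spearman's rho -0.10) over the 9 Spo11-Cre libraries and -0.04 (rho -0.02) over the 8 without Cre. Each point is a library and both genes share its depth, so these values are a description. Deviations from the group means had the same sign for both genes in 12 of 21 libraries, and Pearson's r between them was -0.32. In a group of 2 libraries the deviations mirror each other, so they are not separate values.

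Per length, in the deposited TPM (read density over the transcript, scaled within each library), *Cul1* was the higher gene in every library. It was at 788 ± 57.5 TPM and *Ezh2* at 106 ± 5.76 TPM in wt/fl (SD, n = 4), and at 1240 ± 61.7 and 161 ± 9.58 TPM in wt/fl Spo11-Cre (SD, n = 5). The ratio of *Cul1* to *Ezh2* TPM ranged from 6.62 to 8.61 without Cre and from 6.39 to 8.48 with Spo11-Cre, so it overlapped between them. The Gdf9-Cre libraries had ratios of 6.34 and 5.35, the Zp3-Cre libraries 4.53 and 7.10, and 3 of these 4 values were below every other library.

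Among the cullins, the scaffolds of related ubiquitin ligases, *Cul1* stood first in every group. It made up 80.7% of the summed cullin TPM in the 8 Cre-free libraries (mean 812 TPM) and 86.2% in the 9 Spo11-Cre libraries (mean 1213 TPM). As *Cul1* was chosen for its higher level with Spo11-Cre, the change in its share is a description. The next, *Cul4b*, had means of 95.7 and 96.2 TPM in these libraries, followed by *Cul5* with 45.5 and 48.0 TPM, *Cul2* with 32.9 and 29.3 TPM and *Cul3* with 15.2 and 15.1 TPM. *Cul4a* was at 4.73 and 5.45 TPM, and *Cul7* and *Cul9* were below 1 TPM in every library. None of the 7 other cullins passed the edgeR test in the Spo11-Cre comparisons, and DESeq2 also called 0. At an unadjusted p under 0.05 were 1 of 7 in wt/fl and 0 of 7 in fl/del, where 15% and 8.32% of all genes were. The log2 difference of *Cul3*, which builds ligases with BTB-domain adaptors, was 0.13 (SE 0.15, adjusted p = 0.779) in wt/fl and -0.11 (SE 0.16, adjusted p = 0.947) in fl/del.

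In the PRC2 core, *Ezh2* stood 3rd by TPM. *Rbbp7*, a histone-binding subunit shared with other chromatin complexes, had a mean of 2307 TPM without Cre and 2083 TPM with Spo11-Cre, and *Eed*, which reads the methyl mark, had 180.2 and 197 TPM. *Ezh2* itself had means of 105 and 164 TPM. Without Cre, the ranges of *Eed* (155 to 199.5 TPM) and *Ezh2* (93.7 to 114 TPM) did not overlap, whereas with Spo11-Cre they did (164 to 228 and 149 to 179 TPM). *Ezh2* was chosen for its higher level with Spo11-Cre, so this change follows from the choice and is a description. *Suz12*, the structural core subunit, was at 41.9 and 41.1 TPM, *Ezh1*, the paralog of *Ezh2*, at 13.5 and 12.6 TPM, and *Rbbp4* at 5.56 and 4.37 TPM.

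**Figure D3:**
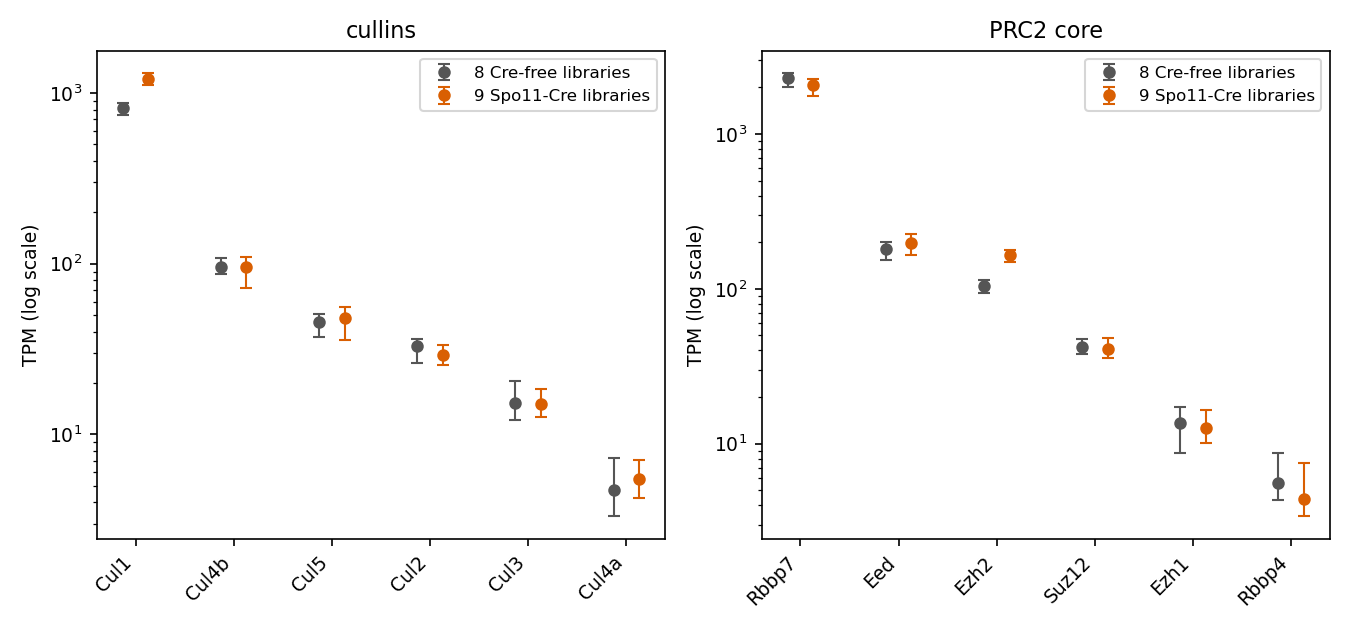
Levels per length (TPM, log scale) of cullins (left) and PRC2 core genes (right) with a mean of at least 1 TPM in the 8 Cre-free libraries, as the mean with the lowest and highest library, without Cre (grey) and with Spo11-Cre (orange). The ranges of *Cul1* (740.4 to 872 and 1121 to 1311 TPM) and *Ezh2* (93.7 to 114 and 149 to 179 TPM) do not overlap, and those of the other genes do. The pair was chosen for its higher levels with Spo11-Cre, so this contrast is a description.

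The partners of CUL1 were tested as a list of 29 genes other than *Cul1*, of which 28 had enough counts. In wt/fl Spo11-Cre against wt/fl, where 491 of 22383 genes (2.19%) passed, 1 of the 28 fell and none rose, where 1.33% of all genes fell. The median log2 difference of the list was 0.00, beside 0.03 over all genes. The gene that fell was *Btrc*, with 404 ± 38.1 CPM (SD, n = 5) against 509 ± 17.3 CPM (SD, n = 4), a log2 difference of -0.31 (SE 0.08, edgeR adjusted p = 0.0276) with no overlap, as was found for 2.82% of genes in this direction. This call held in 12 of 17 alternatives, and in 4 of the 9 fits that left out a library (highest adjusted p = 0.117). The adaptor *Skp1* (listed as *Skp1a*), the most abundant partner in wt/fl (3282 TPM), had a log2 difference of 0.21 (SE 0.07, adjusted p = 0.110), and the RING gene *Rbx1* had 0.27 (SE 0.09, adjusted p = 0.122). Neither passed. At an unadjusted p under 0.05 were 11 of the 28 (39.3%), beside 15% of all genes. DESeq2 called 5, namely *Btrc*, *Ccnf*, *Cops2*, *Rnf7* and *Skp1a*, and 9.94% of all genes to which it gave an adjusted p.

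In fl/del Spo11-Cre against fl/del, where 0.241% of genes passed, none of the 28 partners passed. An unadjusted p under 0.05 was given to 2 of them (7.14%) and to 8.32% of all genes. DESeq2 called 0 of them, and 0.657% of all genes to which it gave an adjusted p. *Btrc* had 447 ± 54.9 and 469 ± 35.4 CPM (SD, n = 4 each), a log2 difference of -0.09 (SE 0.09, adjusted p = 0.863). *Skp1a* differed by 0.07 (SE 0.07, adjusted p = 0.899) and *Rbx1* by -0.06 (SE 0.10, adjusted p = 0.949). Against wt/fl, the fl/del group (0.0223% of genes passed) and the fl/del Spo11-Cre group (0.197%) also had 0 partners called by edgeR. Of the 28, 5 (17.9%) and 7 (25%) had an unadjusted p under 0.05, beside 8.52% and 10.4% of all genes. DESeq2 called 0 and 1 (*Skp1a*), beside 0.255% and 1.56% of all genes to which it gave an adjusted p.

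PRC2 genes other than *Ezh2* were tested as a list of 15, which also holds the H3K27 demethylase genes *Kdm6a* and *Kdm6b*. In wt/fl Spo11-Cre against wt/fl, 1 fell with edgeR and none rose, where 1.33% of all genes fell. The median log2 difference was -0.12, beside 0.03 over all genes. At an unadjusted p under 0.05 were 4 of the 15 (26.7%), beside 15% of all genes. DESeq2 called 2, *Phf1* and *Rbbp7*, and 9.94% of all genes to which it gave an adjusted p. The gene that fell with edgeR was *AU022751*, the mouse *Ezhip*, which encodes an inhibitor of PRC2. Its level was 462 ± 105 CPM (SD, n = 5) against 664 ± 84.9 CPM (SD, n = 4), without overlap and with a log2 difference of -0.50 (SE 0.13, edgeR adjusted p = 0.0196). The call held in 11 of 17 alternatives, and in 5 of the 9 fits without a library, and DESeq2 gave an adjusted p of 0.107. Without wt/fl replicate 1, or without wt/fl replicate 2, neither *Btrc* nor *AU022751* passed. The core subunits *Eed* (log2 difference 0.10, SE 0.09, adjusted p = 0.666), *Suz12* (0.01, SE 0.10, adjusted p = 0.983) and *Ezh1* (-0.23, SE 0.15, adjusted p = 0.489) did not pass.

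In fl/del Spo11-Cre against fl/del, 0 of the 15 passed with edgeR, 1 (6.67%, beside 8.32% of all genes) had an unadjusted p under 0.05 and DESeq2 called 0. *AU022751* was at 527 ± 71.0 and 533 ± 168 CPM (SD, n = 4 each), with a log2 difference of -0.05 (SE 0.13, adjusted p = 0.982). *Eed* differed by 0.21 (SE 0.09, adjusted p = 0.554), *Suz12* by -0.02 (SE 0.11, adjusted p = 1) and *Ezh1* by 0.09 (SE 0.16, adjusted p = 0.963). Whether the effect of Spo11-Cre differed between wt/fl and fl/del was tested as an interaction. It passed for 23 of 22383 genes and for 0 of 80 genes of the partner, cullin, PRC2, imprinted and neighbour lists. At an unadjusted p under 0.05 were 7 of the 80 (8.75%). The share of all genes at that threshold was not computed for the interaction, so this count is not read further. The interaction of *AU022751* was 0.45 on the log2 scale (adjusted p = 0.355) and that of *Btrc* 0.22 (adjusted p = 0.534). Against wt/fl, 0 genes of the PRC2 list passed in fl/del or fl/del Spo11-Cre with edgeR or DESeq2. At an unadjusted p under 0.05 were 2 (13.3%) and 3 (20%), beside 8.52% and 10.4% of all genes.

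Genes that PRC2 is known to silence were mostly at low levels. Of 6 genes whose imprint depends on maternal H3K27 methylation, 3 had enough counts, and none reached a mean of 1 TPM in any group. None of the 3 passed in any of the 5 comparisons with edgeR or DESeq2. With Spo11-Cre, 2 of the 3 were at an unadjusted p under 0.05 in wt/fl and 0 in fl/del, where 15% and 8.32% of all genes were. Of 30 developmental regulators, 6 had no count in any library, 6 reached a mean of 1 TPM in some group and 3 did so in every group. The highest of them, named after their values were seen, were *Cdkn1c*, at group means of 3.77 to 7.98 TPM, and *Gata4*, at 2.24 to 3.66 TPM. In the Spo11-Cre comparisons 19 could be tested and 0 passed with edgeR or DESeq2. An unadjusted p under 0.05 was given to 1 of 19 (5.26%) in wt/fl and 3 of 19 (15.8%) in fl/del.

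Oocyte markers moved in the same comparison as *Btrc* and *AU022751*. In wt/fl Spo11-Cre against wt/fl, *Nobox* (log2 difference -0.42, edgeR adjusted p = 0.00305), *Tle6* (-0.32, adjusted p = 0.0249) and *Zp1* (-0.30, adjusted p = 0.0466) fell and *Ooep* (0.33, adjusted p = 0.0292) rose. These were 4 of 12 oocyte genes, where 2.19% of all genes passed. DESeq2 called the same 4, and 9.94% of all genes to which it gave an adjusted p. The other alternatives were not run for the oocyte genes. In fl/del Spo11-Cre against fl/del, 0 of the 12 passed with edgeR or DESeq2, but 6 (50%) were at an unadjusted p under 0.05, beside 8.32% of all genes. *Cul1* and *Ezh2* had no overlap in either comparison. The summed oocyte genes were at 30502 to 38408 CPM with Spo11-Cre and 31601 to 40228 CPM without Cre, and the summed follicle cell genes at 402 to 511 and 458 to 567 CPM. No follicle cell gene passed with edgeR or DESeq2 in any comparison, with 6 of 16 (37.5%) and 2 of 16 (12.5%) at an unadjusted p under 0.05 in the Spo11-Cre comparisons, beside 15% and 8.32% of all genes. Of the 18 follicle cell genes, *Foxl2* had no count in any library, and *Amh* had counts in 3 libraries. In contrast, 4 had counts in every library, namely *Serpine2*, *Cyp19a1* (46.5 to 80.5 CPM), *Nr5a2* (21.1 to 44.8 CPM) and *Kitl* (1.74 to 7.42 CPM). The part of these markers in the levels of the pair was not tested.

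In the fl/fl groups against wt/fl, where 647 of 23225 genes (2.79%) passed, 1.02% higher and 1.77% lower, 8 of 82 list genes did. At an unadjusted p under 0.05 were 18 of the 82 (22%) and 14.3% of all genes. DESeq2 called 10 of the 82, and 12% of all genes to which it gave an adjusted p. *Btrc* fell (log2 difference -0.49, SE 0.11, edgeR adjusted p = 0.00671), in a comparison with the same wt/fl libraries as above, and *Fbxo11*, another F-box gene, rose (0.44, adjusted p = 0.0328), while *Cul5* fell (-0.44, adjusted p = 0.0338). The lower *Cul5* was in the Zp3-Cre libraries, with 71.5 and 113 CPM, whereas the Gdf9-Cre libraries had 157 and 151 CPM and lay within the wt/fl range of 136 to 162 CPM. Of the 15 genes of the PRC2 list, 4 passed. *Suz12* rose (0.45, SE 0.12, adjusted p = 0.0302), as did *Jarid2* (0.58, adjusted p = 0.0229), a recruiting subunit, and *Kdm6b* (0.99, adjusted p = 0.00105), an H3K27 demethylase. *Kdm6b* was at 102 CPM in Zp3-Cre replicate 1 and at 27.5 to 36.2 CPM in the other fl/fl libraries, all above the wt/fl range of 18.5 to 25.0 CPM. *Phf19*, an accessory subunit, fell (-1.07, adjusted p = 0.00506). The eighth gene, *Pdia4*, is a neighbour of the pair. Without fl/fl Zp3-Cre replicate 1, *Pdia4* alone of the 8 passed. Of 12 oocyte genes, *H1foo*, *Zp1* and *Zp3* fell in this comparison.

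Other genes near the pair were examined within 1 Mb on each side, where the count table has 51 genes and 27 could be tested. None passed in the comparisons within the Spo11-Cre background with edgeR or DESeq2, with 3 of 27 (11.1%) at an unadjusted p under 0.05 for Spo11-Cre in wt/fl and 1 of 27 (3.7%) in fl/del, beside 15% and 8.32% of all genes. The nearest protein-coding gene before *Cul1* is *Cntnap2*, a neuronal adhesion gene 149184 bp away, and it is the only one on that side. It had 6.23 to 17.7 CPM over the libraries. Its log2 difference with Spo11-Cre was 0.47 (SE 0.22, adjusted p = 0.295) in wt/fl and 0.43 (SE 0.23, adjusted p = 0.618) in fl/del, and groups overlapped in both.

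After *Ezh2*, the nearest protein-coding gene is *Pdia4*, a protein disulfide isomerase of the endoplasmic reticulum, 200799 bp away and at 73.2 to 144 CPM. It differed by -0.27 (SE 0.11, adjusted p = 0.202) with Spo11-Cre in wt/fl and by -0.04 (SE 0.11, adjusted p = 0.987) in fl/del, and it fell by 0.69 on the log2 scale (adjusted p = 0.000509) in the fl/fl groups against wt/fl, under every one of 16 alternatives. The next are zinc finger genes. *Zfp398* differed by -0.01 (SE 0.20) and -0.03 (SE 0.21), *Zfp282* by -0.44 (SE 0.49) and -0.61 (SE 0.52), and *Zfp212* by -0.26 (SE 0.15) and -0.19 (SE 0.15) in wt/fl and fl/del. *Zfp786* had 0 to 0.596 CPM, too few for a fold change. Of 18 neighbours with a mean of at least 1 CPM, 3 had positive differences in both Spo11-Cre comparisons and 7 had negative differences in both.

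**Figure D4:**
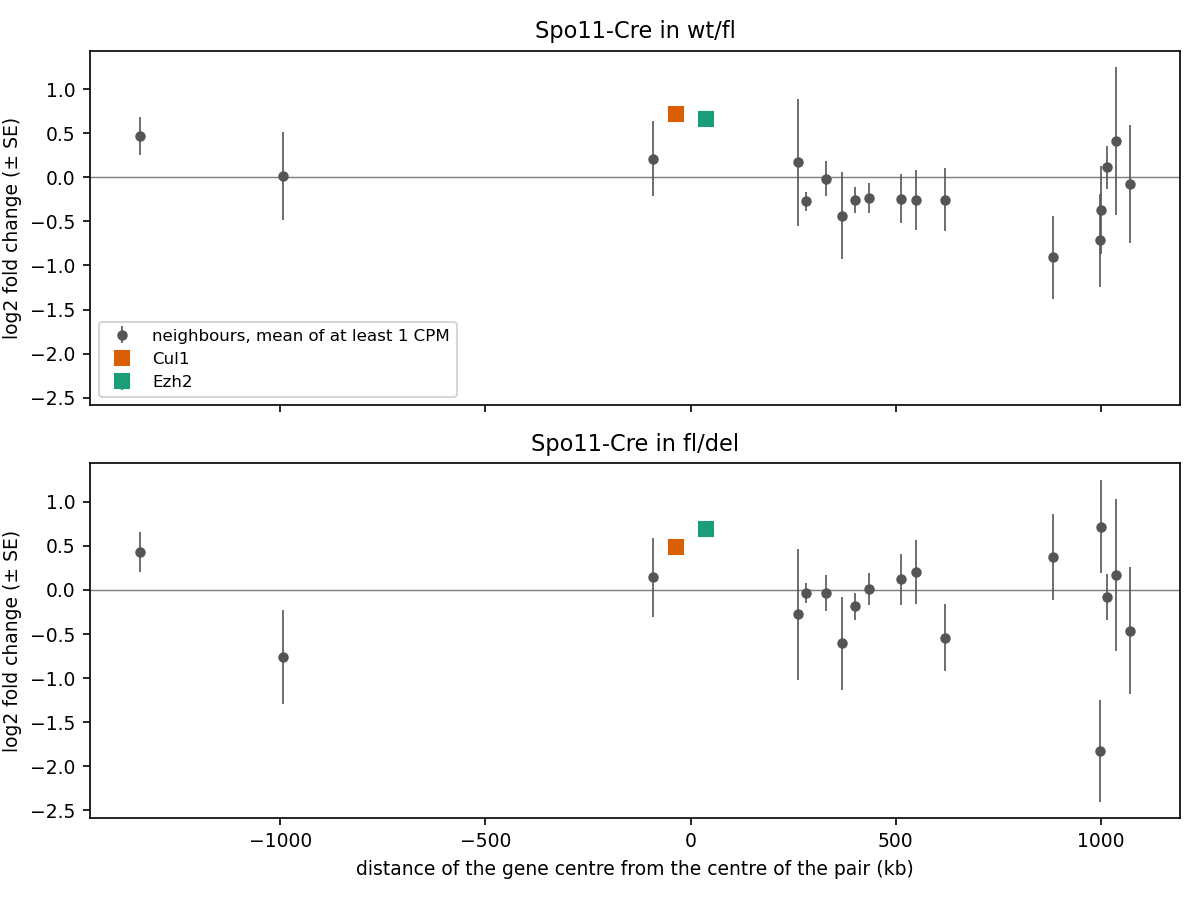
Log2 fold change (± SE) with Spo11-Cre in wt/fl (top) and fl/del (bottom) of *Cul1*, *Ezh2* and the 18 neighbours with a mean of at least 1 CPM, by distance of the gene's centre from the centre of the pair in kb. *Cul1* (0.72 and 0.49) and *Ezh2* (0.66 and 0.69) have SE bars that are hidden by their symbols, and the neighbours range from -1.83 to 0.72 with wider bars.

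Annotated genes overlap the exons of the pair. The pseudogene *A930035D04Rik* shares 192 bp with exons of *Cul1* on the opposite strand and had 115 counts over all libraries, and the lincRNA *Gm26625* shares 174 bp with exons of *Ezh2* and had none. *Cul1* itself had 7430 to 40576 counts per library and *Ezh2* 1916 to 8584. The sources used here do not state whether counting used strand, so reads from overlapping opposite strands cannot be told apart, and reads within the shared bases were not measured.

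Over the 21 libraries and 9479 genes with a mean of at least 5 CPM, the gene whose log2(CPM + 1) was most like that of *Cul1* was *Zcchc7* on chromosome 4 (Pearson's r = 0.93), followed by *Rae1* (0.89), *Fam118b* (0.86), *Oas1h* (0.85) and *Naa20* (0.83). Most like *Ezh2* were *Rae1* (0.91), *Naa20* (0.88), *Zcchc7* (0.85), *Timd4* (0.84) and *Hsd17b10* (0.83). *Ezh2* came 9th for *Cul1*, and *Cul1* 8th for *Ezh2*. The libraries fall into separate clouds and share depth between genes, so these values describe the split by driver, which is also that by name letter. *Zcchc7* had 86.0 to 112 CPM with Spo11-Cre and 50.5 to 65.8 CPM without Cre, *Rae1* had 320.3 to 432 and 169.9 to 216 CPM, and *Naa20* had 156 to 235 and 98.6 to 125 CPM. In the fl/fl libraries they had 48.1 to 71.7, 179.9 to 200.4 and 105 to 144 CPM, below the Spo11-Cre libraries.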

How the data were processed

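Poly(A) RNA of 3 oocytes per library was amplified with SMART-seq v4 and sequenced as 150-base read pairs. Per the submitters' notes and methods, fastp served for trimming, HISAT2 2.2.1 for alignment to GRCm38 and featureCounts 2.0.3 for counting on Ensembl 93 genes. The authors deposited raw counts over all exons and TPM values. Whether counting used strand is not given in the sources used here. Total counts bound the precision, and intervals were not computed beyond replicate spread.

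From the deposited counts, CPM was computed with the total of each library. Genes with a count in at least 3 libraries were tested with edgeR 4.0.16 (R 4.3.3, TMM, quasi-likelihood test, Benjamini-Hochberg adjusted p under 0.05). Libraries with the Spo11-Cre background (17) entered 1 fit, and the fl/fl groups, weighted equally, were set against wt/fl in a fit of all 21. DESeq2 1.42.0, other scaling and filters, a second deposited count table (for *Kif11* restricted to exon 22, and in which *Cul1* counts were lower by a mean factor of 1.97 and *Ezh2* counts by 1.89, a difference in what was counted that the sources used here do not explain), a replicate block, the compared groups alone, libraries summed by name prefix and leaving out each library were alternatives. Tests were checked on simulated counts. Positions came from GENCODE M21 and promoters (250 bases before and 50 after a start) from RefSeq. Tables were handled with Python 3.11.15, pandas 2.3.3 and numpy 2.4.6.

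The 2 genes and the lists were chosen with earlier results of these data known. Named genes were the pair, the listed core partners, list genes past the threshold, the 5 nearest tested protein-coding genes on each side and the 5 genes most like each member. Replicate numbers did not pair samples (r of deviations between -0.258 and 0.228 in 42 same-number pairs, 7 over 0.1).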

Additional observations from a re-analysis of the deposited data

Results flagged for a closer look

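Of 28 sets of values checked for an outlying value, 1 had a library far from the others, and chance flags about 1 in 20. It was the total count of fl/del replicate 3, at 7205010 the lowest of the series, with a gap to its nearest neighbour of 0.875 of the group's range, above Dixon's 95% critical value. In that library *Cul1* was at 1386 CPM and *Ezh2* at 266 CPM.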

How the results depend on the processing

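The log2 differences of *Cul1* and *Ezh2* moved by less than the replicate spread under every alternative run. With a library left out, the 5 differences ranged for *Cul1* from 0.69 to 0.76 (wt/fl Spo11-Cre against wt/fl), 0.10 to 0.17 (fl/del against wt/fl), 0.57 to 0.65 (fl/del Spo11-Cre against wt/fl), 0.45 to 0.51 (fl/del Spo11-Cre against fl/del) and -0.35 to -0.08 (fl/fl), and for *Ezh2* from 0.64 to 0.69, -0.03 to 0.04, 0.67 to 0.72, 0.65 to 0.72 and 0.12 to 0.18. Some group levels moved by more than their SD. TMM scaling put *Cul1* in fl/del at 1423 CPM, from 1397 ± 21.1 CPM (SD, n = 4). It put *Ezh2* in fl/fl Gdf9-Cre at 338 CPM, from 353 ± 1.04 CPM (SD, n = 2). Counts of list genes called moved more, and the cause was not tested. In wt/fl Spo11-Cre against wt/fl (2 called), DESeq2 called 7, no filter 5, counts of the exon 22 table gave 4, and leaving out a library 0 (without wt/fl replicate 1 or 2) to 4. In fl/fl against wt/fl (8), the compared groups alone gave 2, libraries summed by prefix 3, and leaving out a library 1 (without fl/fl Zp3-Cre replicate 1) to 12. In fl/del Spo11-Cre against wt/fl (0), DESeq2 and no filter gave 1 each, and in fl/del Spo11-Cre against fl/del (0) no filter gave 1 (*Gm10243*). Replicate numbers did not pair the samples. With a replicate block, 3 list genes were called in wt/fl Spo11-Cre against wt/fl, 1 in fl/del against wt/fl, 2 in fl/del Spo11-Cre against wt/fl, 1 in fl/del Spo11-Cre against fl/del and 10 in fl/fl, and *Cul1* and *Ezh2* differed by 0.72 and 0.67 in the first of these.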
